A study of Mus musculus with 28 samples.

Results

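Fox and Sox genes encode large families of transcription factors. The genes described here were the protein-coding autosomal genes of the GENCODE annotation of mm10 whose symbol is Fox followed by a letter from a to s and a number, or Sox followed by a number, without *Foxp1*, *Foxp2*, *Sox9* and *Sox10*. There were 55 such genes, 39 Fox and 16 Sox, of 20807 protein-coding autosomal genes. Each was read in the lists of H3K4me3 peaks and H3K27me3 islands at its promoter, taken as 2 kb upstream to 1 kb downstream of the annotated transcription start site (TSS), and over its gene body.

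Fox proteins bind DNA through a forkhead domain, and Sox proteins through an HMG box. Many of them set cell identity in the embryo, such as *Foxa2* in endoderm and floor plate and *Sox17* in endoderm and endothelium. Others act in most tissues, such as the Foxo factors that respond to insulin signalling. H3K4me3 marks the promoters of active genes, H3K27me3 is laid down by Polycomb and marks silenced developmental genes, and a promoter with both is called bivalent.

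The study profiled both marks by CUT&RUN (CnR) in nuclei of the medium spiny neurons of the adult mouse striatum, isolated by their tagged nuclear envelope (INTACT). The mice were Sun1-sfGFP;A2a-cre for the A2a neurons of the indirect pathway and Sun1-sfGFP;Drd1-cre for the D1 neurons of the direct pathway, both carrying the R26-CAG-LSL-Sun1-sfGFP allele (C57BL/6J background). They were of both sexes, and no treatment was named in the labels. Striatum of both sides of a single mouse made a sample. The tag is carried by cells in which the A2a-cre or *Drd1*-cre line has been active, and the A2a and D1 groups are the nuclei purified by it. The 4 lists used here are A2a H3K4me3 and D1 H3K4me3 (Abcam antibody) and A2a H3K27me3 and D1 H3K27me3 (Active Motif antibody). Each list pools 2 replicates, so the values below have no replicate error, and A2a and D1 could not be tested against each other across mice. The lists came from bulk nuclei, so both marks in the same nucleus and each mark in a different nucleus cannot be told apart.

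The A2a and D1 lists held 22551 and 20080 H3K4me3 peaks and 60191 and 45760 H3K27me3 islands. The study gives only a range of depth over its samples and the lists carry no totals, so the depth of each list is unknown. With signal scaled to mapped reads, the study still reported more of both marks in peaks in A2a than in D1. Islands of A2a had a median of 211 reads and those of D1 a median of 104.0 reads. In the 28726 regions where islands of both cell types overlapped, the median ratio of A2a to D1 reads was 2.33. Only reads inside called islands count toward this ratio. A mark missing from a list is one that was not called at its depth. For the D1 H3K27me3 samples the source name reads A2a while the title and the cell type read D1, and they were taken as D1. At *Adora2a* an island of 45.0 kb was present in D1 and none in A2a, and at *Tac1* the A2a island measured 61.0 kb against 2.80 kb in D1. Of the markers of both neuron types, *Ppp1r1b* and *Bcl11b* had H3K4me3 alone in both cell types, and *Gad1* had neither mark at its annotated start. Markers of other cells were also read. H3K4me3 was found at 4 of 5 oligodendrocyte markers in each cell type, of which *Mog* had it in A2a alone and *Mag* in D1 alone. It was found at 1 of 4 astrocyte markers in both (*Slc1a3*), at 1 of 4 microglial markers in A2a and none in D1, and at none of 3 endothelial markers.

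The 250 bases upstream of the RefSeq start of 6 genes are printed to show the kinds of promoter that the results below turn on. *Foxa2* (GRCm38.p6 chr2:148046970-148047219, minus strand) had H3K27me3 alone and the promoter island with the most reads. *Foxf2* (chr13:31625566-31625815, plus strand) had the longest A2a island. *Sox21* (chr14:118237031-118237280, minus strand) was bivalent in both cell types. *Foxp4* (chr17:47924633-47924882, minus strand) was bivalent in A2a and had H3K4me3 alone in D1. *Sox4* (chr13:28953700-28953949, minus strand) had H3K4me3 alone in both, and *Foxn1* (chr11:78386609-78386858, minus strand) had neither mark. Letters run 5′ to 3′ in the direction of transcription, and CpG dinucleotides (the letters CG, the same on both strands) are in capitals.
Foxa2: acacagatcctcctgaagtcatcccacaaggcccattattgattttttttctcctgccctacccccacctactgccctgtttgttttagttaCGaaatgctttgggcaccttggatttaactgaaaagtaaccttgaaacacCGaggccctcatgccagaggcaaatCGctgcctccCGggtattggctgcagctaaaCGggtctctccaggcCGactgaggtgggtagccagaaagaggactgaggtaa
Foxf2: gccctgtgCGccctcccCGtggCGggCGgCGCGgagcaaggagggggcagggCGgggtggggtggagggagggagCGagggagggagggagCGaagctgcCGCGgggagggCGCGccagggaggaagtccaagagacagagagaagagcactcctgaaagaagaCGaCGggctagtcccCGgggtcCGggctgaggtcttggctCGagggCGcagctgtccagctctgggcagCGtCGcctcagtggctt
Sox21: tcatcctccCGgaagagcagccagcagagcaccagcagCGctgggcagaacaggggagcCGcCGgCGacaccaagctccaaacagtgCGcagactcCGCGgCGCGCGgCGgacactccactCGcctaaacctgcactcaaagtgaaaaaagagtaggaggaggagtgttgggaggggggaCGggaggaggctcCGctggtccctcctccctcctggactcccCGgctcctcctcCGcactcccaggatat
Foxp4: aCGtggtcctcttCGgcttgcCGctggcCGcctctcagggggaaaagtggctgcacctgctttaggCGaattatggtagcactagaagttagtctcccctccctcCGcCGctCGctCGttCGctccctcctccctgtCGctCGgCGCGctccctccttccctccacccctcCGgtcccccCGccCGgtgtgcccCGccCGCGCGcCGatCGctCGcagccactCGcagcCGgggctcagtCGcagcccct
Sox4: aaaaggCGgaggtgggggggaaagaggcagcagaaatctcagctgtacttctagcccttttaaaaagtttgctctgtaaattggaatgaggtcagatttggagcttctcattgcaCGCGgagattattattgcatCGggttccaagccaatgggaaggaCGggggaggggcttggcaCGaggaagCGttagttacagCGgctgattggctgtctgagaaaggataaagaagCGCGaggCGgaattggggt
Foxn1: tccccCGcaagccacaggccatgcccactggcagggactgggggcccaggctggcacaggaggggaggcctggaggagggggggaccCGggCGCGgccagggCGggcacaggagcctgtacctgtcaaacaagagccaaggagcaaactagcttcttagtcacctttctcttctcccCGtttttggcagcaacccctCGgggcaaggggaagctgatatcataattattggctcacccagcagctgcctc

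These stretches held 6 CpG at *Foxa2*, 21 at *Foxf2*, 17 at *Sox21*, 27 at *Foxp4*, 11 at *Sox4* and 7 at *Foxn1*. Over the 32851 promoters of the RefSeq table, the same 250 bases held a median of 6 CpG, and 92.1% held at least 1. *Foxp4* was at percentile 92.4 of these promoters and *Foxf2* at percentile 85.2, while *Foxa2* was at 53.7. The 4 printed genes whose promoter window lay wholly under an A2a island, *Foxa2*, *Foxf2*, *Sox21* and *Foxp4*, held at least the median CpG count. So did *Sox4* and *Foxn1*, which had no A2a island at the promoter. Reaching the median therefore did not set the printed promoters with an island apart from those without one.

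H3K27me3 was found at Fox and Sox promoters more often than at those of all genes, and H3K4me3 was not. In A2a, 36 of 55 promoters (65.5%) had an island, where 22.4% of all genes did. In D1, 30 of 55 (54.5%) had one, where 15.8% of all genes did. H3K4me3 was found at 30 promoters in A2a (54.5%, background 59.3%) and at 25 in D1 (45.5%, background 56.8%), which is near the share of all genes or below it. Bivalent promoters numbered 15 in A2a (27.3%, background 9.84%) and 5 in D1 (9.09%, background 5.79%). The remaining A2a promoters had H3K27me3 alone in 21 genes (38.2%, all genes 12.6%), H3K4me3 alone in 15 (27.3%, all genes 49.4%) and neither mark in 4 (7.27%, all genes 28.2%). In D1 they numbered 25 (45.5%, all genes 10%), 20 (36.4%, all genes 51%) and 5 (9.09%, all genes 33.2%). H3K4me3 alone and the absence of both marks were thus less frequent than over all genes.

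**Figure D1:**
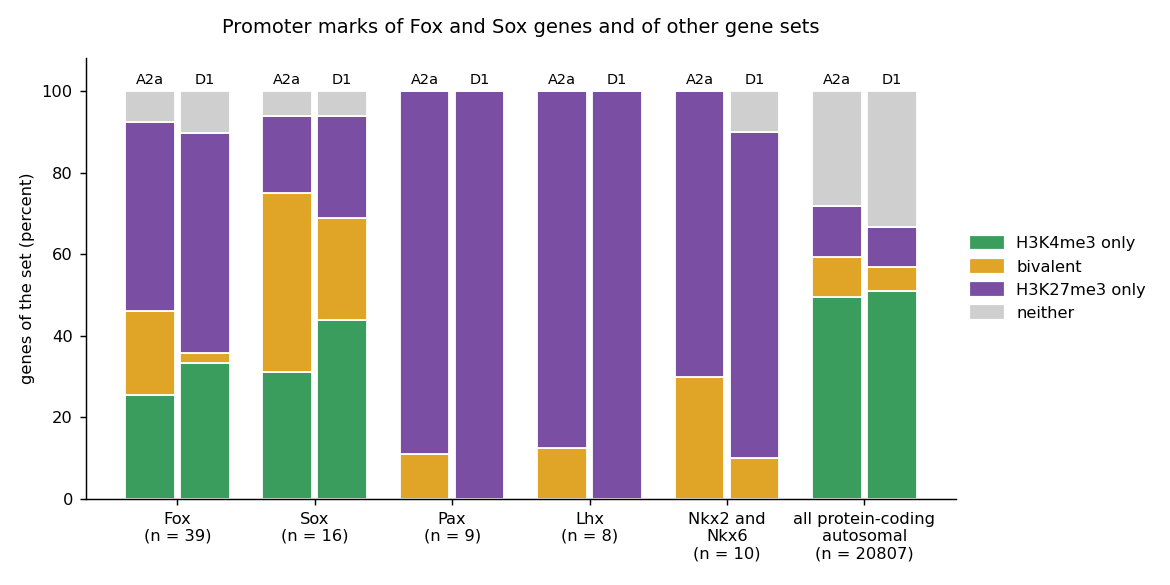
Share of genes in percent (vertical axis) whose promoter had H3K4me3 only, both marks (bivalent), H3K27me3 only or neither, in A2a (left bar of each pair) and D1 (right bar), for Fox and Sox genes, 3 other families of developmental transcription factors and all protein-coding autosomal genes. Fox and Sox genes hold H3K4me3 only promoters (10 and 5 genes in A2a), which none of the Pax, Lhx, Nkx2 and Nkx6 genes has.

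Promoters with H3K4me3 alone were present in these families and absent from 3 other sets of developmental factors. In A2a, 10 of 39 Fox genes and 5 of 16 Sox genes had H3K4me3 alone, against 0 of 9 Pax genes, 0 of 8 Lhx genes and 0 of 10 Nkx2 and Nkx6 genes. These shares of 25.6% and 31.2% lay below the 49.4% of all genes, and *Foxm1* and *Foxh1* were counted through a peak at the start of a neighbouring gene. All 27 of those other genes had an A2a island at the promoter. Between the families described here, bivalent promoters made up 43.8% of the Sox genes and 20.5% of the Fox genes in A2a, and 25.0% and 2.56% in D1. These shares were not tested.

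The islands at these promoters were among the longest of their lists. In A2a the promoter island measured a median of 26.1 kb over the 36 genes that had one (range 2.40 to 65.6 kb), against a median of 6.20 kb over the 4661 genes with a promoter island. In D1 the median was 22.9 kb over 30 genes (range 3.20 to 50.6 kb), against 4.80 kb over 3287 genes. A promoter island longer than 10 kb was found at 31 of 55 genes in A2a (background 6.28%) and at 26 in D1 (background 3.34%). Ranked by reads within its own list, the members' island had a median percentile of 99.4 in A2a and 99.5 in D1, where a percentile of 99.4 means that 99.4% of the islands of that list had as many reads or fewer. For all genes with a promoter island the medians were 83.0 and 84.0. The islands were dense as well as long, with a median of 141 reads per kb in A2a against 76.5 for all genes, and 80.5 against 46.1 in D1.

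Many of these genes lay wholly under their island. The gene body fell inside a single island for 27 of 55 genes in A2a (49.1%, background 2.96%) and for 24 in D1 (43.6%, background 1.85%). The island covered the entire promoter window at 33 of the 36 A2a promoters and at 26 of the 30 D1 promoters. The same share was not computed over all genes, so these 2 counts describe the members only. No other protein-coding gene had its start in the island of 30 of the 36 genes in A2a (83.3%) and of 24 of the 30 in D1 (80%), against 90% and 91.7% of all genes with a promoter island. Wide as they were, most of these islands held a single protein-coding start, which is also the case for the islands of most genes.

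The A to F, H, I, L, Q and S groups hold the Fox genes that pattern tissues of the embryo. Of these, 22 of 23 had an H3K27me3 island at the promoter in A2a (background 22.4%) and 20 of 23 in D1 (background 15.8%). In both cell types *Foxh1* had none. It encodes a partner of Smad proteins in Nodal signalling. *Foxa2* (chromosome 2 from 148042877 to 148046969) is a pioneer factor of endoderm and midbrain floor plate. The A2a island of *Foxa2* measured 59.4 kb and held 10064 reads, and its D1 island measured 48.4 kb and held 4342 reads. *Foxa1*, its close relative, had islands of 34.0 kb with 7065 reads in A2a and 33.6 kb with 3678 reads in D1. At 208 reads per kb the A2a island of *Foxa1* was the densest of all the members' promoter islands in that list. The nearest A2a H3K4me3 peak lay 346 kb from the *Foxa2* promoter and 27.4 kb from that of *Foxa1*.

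*Foxf2*, a factor of gut mesenchyme and of brain pericytes (chromosome 13 from 31625816 to 31631403), had the longest A2a island, of 65.6 kb with 9179 reads. Its D1 island was 30.2 kb long with 3145 reads, and further D1 islands lay beside it. Over the merged region the D1 list held 4151 reads and the ratio of A2a to D1 reads was 2.21, close to the median of 2.33. The *Foxf2* domain was thus 1 island in A2a and several in D1, with reads in about the usual ratio. *Foxc1*, a factor of mesoderm and of blood vessels on the same chromosome, had islands of 44.6 kb with 6429 reads in A2a and 39.6 kb with 2959 reads in D1. *Foxq1*, an epithelial factor, is the third gene of this cluster, 64.8 kb from *Foxf2*, which in turn lies 175 kb from *Foxc1*. It had islands of 23.8 and 18.8 kb, and an H3K4me3 peak lay 0.513 kb beyond its promoter window in A2a and 0.569 kb beyond it in D1. These peaks lay in the gene body, under the island.

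Neighbouring Fox genes shared islands in 2 places. *Foxd2* and *Foxe3* (a lens factor), 16.3 kb apart on chromosome 4, lay under the same island, which measured 57.4 kb with 8098 reads in A2a and 50.6 kb with 3591 reads in D1. *Foxc2* (lymphatic vessels) and *Foxl1* (gut mesenchyme), 9.04 kb apart on chromosome 8, shared an island of 22.8 kb with 3753 reads in A2a and of 18.6 kb with 1610 reads in D1. *Foxf1*, 28.0 kb from *Foxc2*, had an island of its own, of 33.6 kb with 5394 reads in A2a and 31.8 kb with 2592 reads in D1. The islands of a pair are a single measurement and do not count as independent values.

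Of the other genes of these groups, those with H3K27me3 alone in both cell types varied in island length. *Foxd1* (kidney stroma) had islands of 41.2 and 30.6 kb in A2a and D1, *Foxd3* (neural crest) of 35.8 and 29.0 kb, and *Foxe1* (thyroid) of 30.4 and 23.2 kb. The shortest A2a island of the groups with H3K27me3 alone was that of *Foxi2*, at 6.80 kb with 750 reads, and it measured 3.80 kb with 283 reads in D1. *Foxi1*, a factor of the inner ear and of ion-transporting cells, had 20.8 kb in A2a and 14.4 kb in D1. In both cell types the islands of *Foxi2* and *Foxi1* had fewer reads than those of *Foxd1*, *Foxd3* and *Foxe1*.

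**Figure D2:**
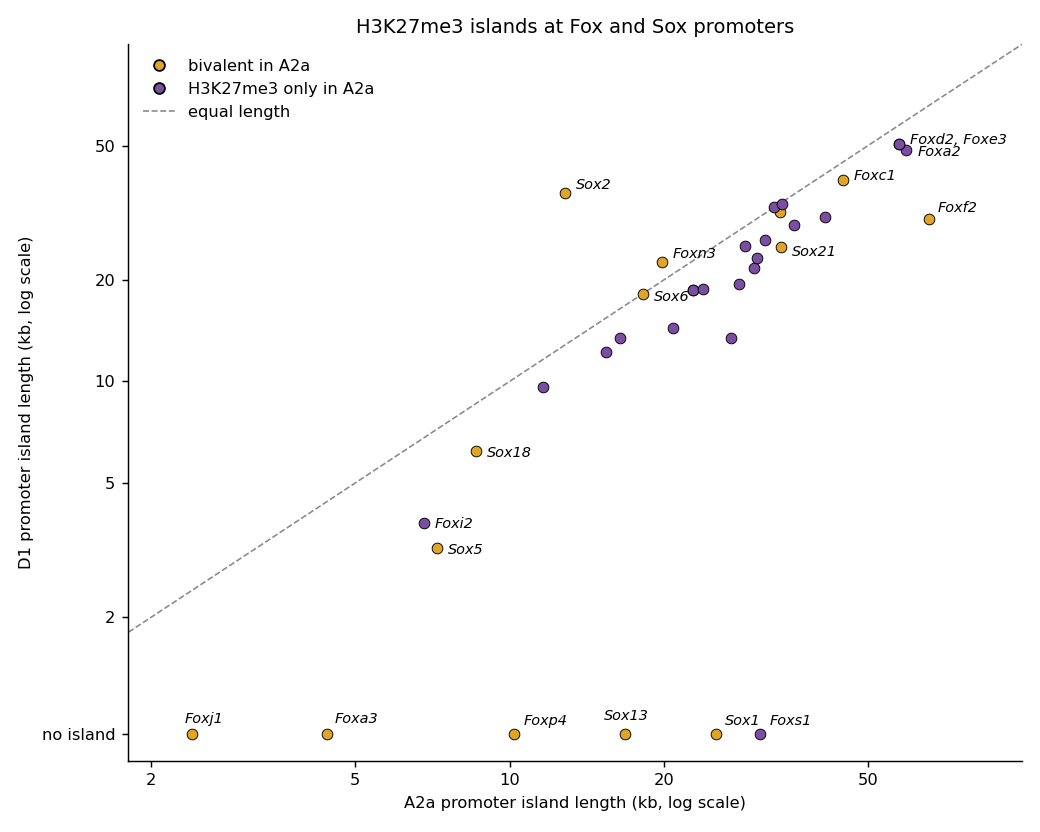
Length of the promoter H3K27me3 island of each Fox and Sox gene in A2a (horizontal) and D1 (vertical), both in kb on log scales, coloured by class in A2a (orange bivalent, purple H3K27me3 only), with genes without a D1 island on the line marked "no island" and the dashed line at equal length. Most genes lie just under the dashed line, *Sox2* lies far above it (12.8 kb in A2a, 36.2 kb in D1), and 6 genes with an A2a island of 2.40 to 30.8 kb have none in D1. The D1 island of *Sox2* also spans a further A2a island outside the promoter window.

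The Fox genes of the J2, J3, K, M, N, O, P4 and R groups, several of which act in most tissues, had H3K27me3 about as often as all genes. An island was found at 3 of 14 in A2a (background 22.4%) and 2 of 14 in D1 (background 15.8%). H3K4me3 was found at 10 of 14 in each cell type (background 59.3% and 56.8%). *Foxo1*, *Foxo3* and *Foxo6*, which carry insulin and stress signals, *Foxk1* and *Foxk2*, *Foxj2* and *Foxn2* had H3K4me3 alone in both. By −log10 q, *Foxj2* had the highest rank of these in A2a, at percentile 94.1 (fold enrichment 6.89), and was at 81.2 in D1 (6.72). *Foxo3* had the highest in D1, at percentile 84.3, and was at 76.4 in A2a. *Foxn2* ranked at percentiles 83.5 in A2a and 71.2 in D1. The highest rank of all members was that of *Foxm1*, a factor of mitotic entry, with percentiles of 98.0 in A2a and 89.4 in D1. Its peak ended just upstream of the annotated *Foxm1* start and held the start of *Rhno1*, so it cannot be assigned to *Foxm1*. The same holds for the peaks counted at *Foxh1*, which held the start of *Ppp1r16a*, and at *Foxa3*, which held the start of *Sympk*.

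The peaks at promoters with H3K4me3 alone were less enriched than at all genes of this class. In A2a the strongest peak of the 15 such genes had a median length of 2232 bp, against 1673 bp over all 10284 genes of this class. Its median fold enrichment was 4.02 against 7.86, and its median percentile by −log10 q was 62.5 against 76.5. In D1 the medians over 20 such genes were a length of 1490 bp against 1551 bp, a fold enrichment of 4.81 against 7.71 and a percentile of 56.0 against 74.2. Some D1 promoters held more than 1 peak, and by the longest peak the medians were 1592 bp against 1553 bp in D1 and 2232 bp against 1674 bp in A2a. In both lists the members' strongest peaks thus ranked below those of the class as a whole, and length differed more in A2a.

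Some of these peaks were among the longest of the list. A cut at 3 kb was chosen after the lengths had been seen. A promoter peak of at least 3 kb was found at 8 of 55 genes in A2a (14.5%, background 2%) and at 4 in D1 (7.27%, background 1.23%). *Foxo3* (chromosome 10 from 42181841 to 42276755) had a peak of 4.60 kb in A2a, and only 2 of the 22551 peaks were longer. In D1 it measured 4.26 kb, with 8 longer. *Sox11*, a SoxC factor of young neurons, had a peak of 4.44 kb in A2a with 8 longer, and of 3.43 kb in D1. *Foxo1* had 4.26 kb in A2a and 4.24 kb in D1. The other genes past 3 kb in A2a were *Foxo6*, *Sox2*, *Sox4*, *Sox8* and *Sox12*. The genes past the cut in A2a included every Foxo and SoxC gene read here. In D1 the longest promoter peaks of *Foxo6* (2.36 kb), *Sox2* (2.87 kb), *Sox4* (1.59 kb) and *Sox12* (1.81 kb) fell short of it.

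**Figure D3:**
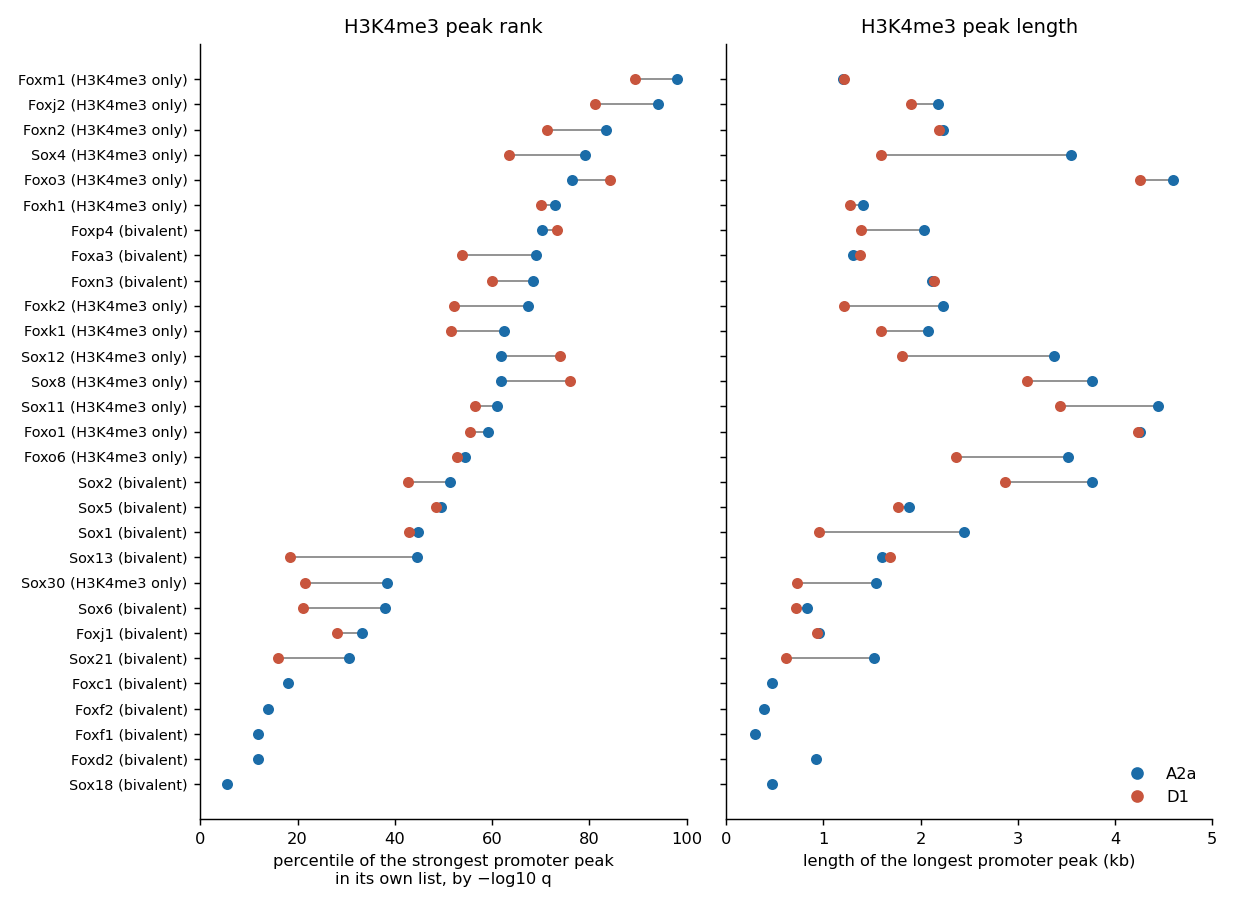
H3K4me3 at the promoters of Fox and Sox genes with a peak, in A2a (blue) and D1 (red): left, percentile of the strongest peak in its own list by −log10 q; right, length of the longest peak in kb. The class in A2a stands beside each name, genes are in order of the A2a percentile, the 5 lowest (*Foxc1*, *Foxf2*, *Foxf1*, *Foxd2* and *Sox18*) have no D1 peak, and *Foxo3*, *Sox11* and *Foxo1* have the longest A2a peaks.

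SoxC genes had H3K4me3 alone in both cell types. *Sox4* (chromosome 13 from 28948919 to 28953713) had a fold enrichment of 3.84 and a −log10 q of 145 in A2a (percentile 79.1), and 3.63 and 73.2 in D1 (percentile 63.4). *Sox11* ranked at percentiles 61.0 and 56.4 in A2a and D1, and *Sox12* at 61.9 and 73.9. None of the 3 had an island in the promoter or the gene body, and the closest was 6.23 kb from the *Sox11* window in A2a, with 162 reads. *Sox8*, a SoxE gene of glia and testis, also had H3K4me3 alone, with peaks of 3.76 kb in A2a and 3.09 kb in D1 and its nearest island 72.5 and 71.9 kb away. H3K4me3 was also present at 4 of 5 oligodendrocyte markers in each list, though not at the same 4. *Mbp* ranked highest of them, at percentiles 88.1 and 80.7. *Mog* had a peak in A2a alone (percentile 23.0) and *Mag* in D1 alone (percentile 2.75). *Olig1* and *Olig2* were bivalent in both cell types, with *Olig2* at percentile 1.13 in D1. The part of other cells in the *Sox8* peak was not tested. *Sox30*, a factor of male germ cells, had a weak peak, at percentiles 38.4 and 21.6.

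SoxF genes, which act in endothelium, had islands in both cell types. *Sox17* had an island of 30 kb with 5681 reads in A2a and 21.6 kb with 2407 reads in D1. *Sox7* had 11.6 kb with 1686 reads and 9.60 kb with 711 reads. *Sox18* had the shortest, of 8.60 kb with 818 reads and 6.20 kb with 237 reads. The order of the 3 genes by length and by reads was the same in A2a and D1. *Sox14*, a SoxB2 gene of interneurons, had islands of 32.8 kb in both, with 5520 and 2822 reads.

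Promoters bivalent in both cell types were *Sox2*, *Sox21*, *Sox5*, *Sox6* and *Foxn3*, which is 9.09% of the 55 genes against a background of 5.42%. *Sox21*, the other SoxB2 gene, which counters SoxB1 genes in neural progenitors (chromosome 14 from 118233232 to 118237030), had the A2a island with the most reads of these 5, of 33.8 kb with 6303 reads in A2a and 25.0 kb with 2728 reads in D1. Its H3K4me3 peak was 1.52 kb at percentile 30.6 in A2a and 0.615 kb at percentile 15.9 in D1, wholly under the island in both. *Foxn3* had an island of 19.8 kb with 1894 reads in A2a and 22.6 kb with 1184 reads in D1. Its peak ranked at percentile 68.4 and 59.9, the highest of these 5 genes in both cell types. Over all bivalent promoters of the families, the peak lay wholly under the island at 13 of 15 genes in A2a and 4 of 5 in D1. The share over the bivalent promoters of all genes was not computed. At *Foxa3* in A2a the peak and the island lay 201 bp apart.

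*Sox5* and *Sox6*, SoxD genes of neuron and cartilage differentiation, are long genes with H3K27me3 along the body. *Sox5* (chromosome 6 from 143828425 to 144781977) spans 954 kb. In A2a, 82 islands covered 79.3% of it, and in D1, 107 islands covered 61.3%. *Sox6* spans 568 kb, and 50 islands covered 53.2% of it in A2a and 39 islands 28.1% in D1. Among the 2372 protein-coding autosomal genes of at least 100 kb, the median covered share was 0% in both cell types. Among these genes *Sox5* ranked at percentiles 98.1 and 97.9, and *Sox6* at 93.9 and 91.7. *Foxn3*, the other member of this length at 374 kb, had 14.2% and 11.5% covered. The promoter island of *Sox5* was short by comparison, at 7.20 kb with 538 reads in A2a and 3.20 kb with 124 reads in D1, where it covered 12.9% of the H3K4me3 peak.

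The promoter class differed between A2a and D1 at 11 of 55 genes (20%, background 11.1%). In each of the 11, a mark called in A2a was not called in D1. An H3K4me3 peak was present in A2a alone at 5 promoters (9.09%, background 2.61%) and in D1 alone at 0 (background 0.154%). Among promoters with an A2a peak, 5 of 30 members and 543 of 12331 of all genes lacked one in D1. An H3K27me3 island was present in A2a alone at 6 promoters (10.9%, background 7.65%) and in D1 alone at 0 (background 1.05%). Among promoters with an A2a island, 6 of 36 members and 1592 of 4661 of all genes lacked one in D1, so members kept islands more often. The members' A2a islands also ranked higher by reads (median percentile 99.4 against 83.0), and these shares were not matched for that. The D1 lists were shorter and shared islands had 2.33 A2a reads per D1 read at the median. The part of depth in these calls was not tested. Most genes with only one of the marks kept their class. All 15 promoters with H3K4me3 alone in A2a had it alone in D1, where 97.7% of all such genes did. Of the 21 with H3K27me3 alone, 20 had it alone in D1 (95.2%), where 62.4% of all such genes did. This comparison was likewise not matched for island reads. Of the 15 bivalent A2a promoters, 5 were bivalent in D1 (33.3%), where 55.1% of all bivalent genes were.

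The 5 genes with an H3K4me3 peak in A2a alone were *Foxc1*, *Foxd2*, *Foxf1*, *Foxf2* and *Sox18*. All had an H3K27me3 island in both cell types. Their A2a peaks were 301 to 928 bp long and had percentiles of 5.54 (*Sox18*) to 18.0 (*Foxc1*), with a −log10 q of 5.03 to 9.66. These were the 5 weakest promoter peaks of the families in A2a. The A2a list held more peaks than the D1 list. With the A2a lists kept to as many of their strongest peaks and islands as D1 held, 27 A2a promoters had a peak, 12 were bivalent and the class differed between the cell types at 8 genes.

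The 6 genes with an island in A2a alone were *Sox1*, *Foxs1*, *Sox13*, *Foxp4*, *Foxa3* and *Foxj1*. *Sox1*, a SoxB1 gene of neural progenitors (chromosome 8 from 12395295 to 12400126), had the highest ratio of A2a to D1 reads. Its A2a island ran from 16.1 kb upstream to 9.11 kb downstream of the TSS and held 3205 reads (percentile 99.2). In D1 the promoter had no island, and a small island of 0.8 kb with 44 reads lay 1.31 kb from the promoter window. Over the merged region the D1 list held 363 reads, and the ratio of A2a to D1 reads was 8.83. On a log2 scale relative to the median of all shared regions this was 1.92 (95% interval 1.77 to 2.09). Intervals of this ratio are exact binomial intervals of the share of reads and cover counting error only. A stretch of the region with no called island in a cell type adds no reads for it. The ratio thus also depends on how much of the region was called in each. H3K4me3 was present in both cell types, at percentiles 44.7 (A2a) and 43.0 (D1).

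*Sox2*, the other SoxB1 gene read here and also a factor of neural progenitors and astrocytes (chromosome 3 from 34650405 to 34652461), differed in the other direction. Its A2a island measured 12.8 kb and held 973 reads (percentile 94.5), and its D1 island measured 36.2 kb and held 2779 reads (percentile 99.7). A second A2a island, from 5.80 to 24.8 kb downstream of the TSS, also lay within the span of the D1 island. The domain was thus 1 island in D1 and more than 1 in A2a. The region held 2417 reads in A2a when all its islands were counted. The ratio of A2a to D1 reads was 0.870, or -1.42 relative to the median on the log2 scale (95% interval -1.50 to -1.34). *Sox2* was the only member of the 33 with a shared region in which D1 had more reads than A2a, where the median shared region had more reads in A2a. Its H3K4me3 peak ranked at percentiles 51.4 (A2a) and 42.8 (D1).

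*Foxs1*, a gene of pericytes and sensory neurons (chromosome 2 from 152931898 to 152933208), had H3K27me3 alone in A2a and neither mark in D1. Its A2a island measured 30.8 kb and held 1957 reads. At 63.5 reads per kb it was long but not dense (percentile 53.4 by reads per kb), unlike that of *Foxa1* (208 reads per kb). In D1, 5 islands with 597 reads lay within 30 kb of the TSS, the nearest 4.41 kb from the promoter window. The relative log2 ratio over the merged region was 1.30 (95% interval 1.14 to 1.47).

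*Foxp4*, a forkhead repressor (chromosome 17 from 47867133 to 47924645), had 978 reads in an A2a promoter island of 10.2 kb. No D1 island lay within 24.8 kb of the window. The *Foxp4* H3K4me3 peak ranked at percentiles 70.3 and 73.4. *Sox13*, a SoxD gene, had an A2a island of 16.8 kb with 1386 reads, and a D1 island of 8.80 kb with 427 reads ended 0.177 kb short of its window. The merged *Sox13* region had a relative log2 ratio of 0.13 (95% interval -0.01 to 0.28), and the D1 island lay just outside the window. *Foxj1*, the main factor of motile cilia, had an A2a island of 2.40 kb with 152 reads at percentile 27.5. The island at *Foxa3*, of 4.40 kb with 278 reads, was at percentile 64.9. These 2 genes had the fewest reads of all A2a promoter islands of the families.

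**Figure D4:**
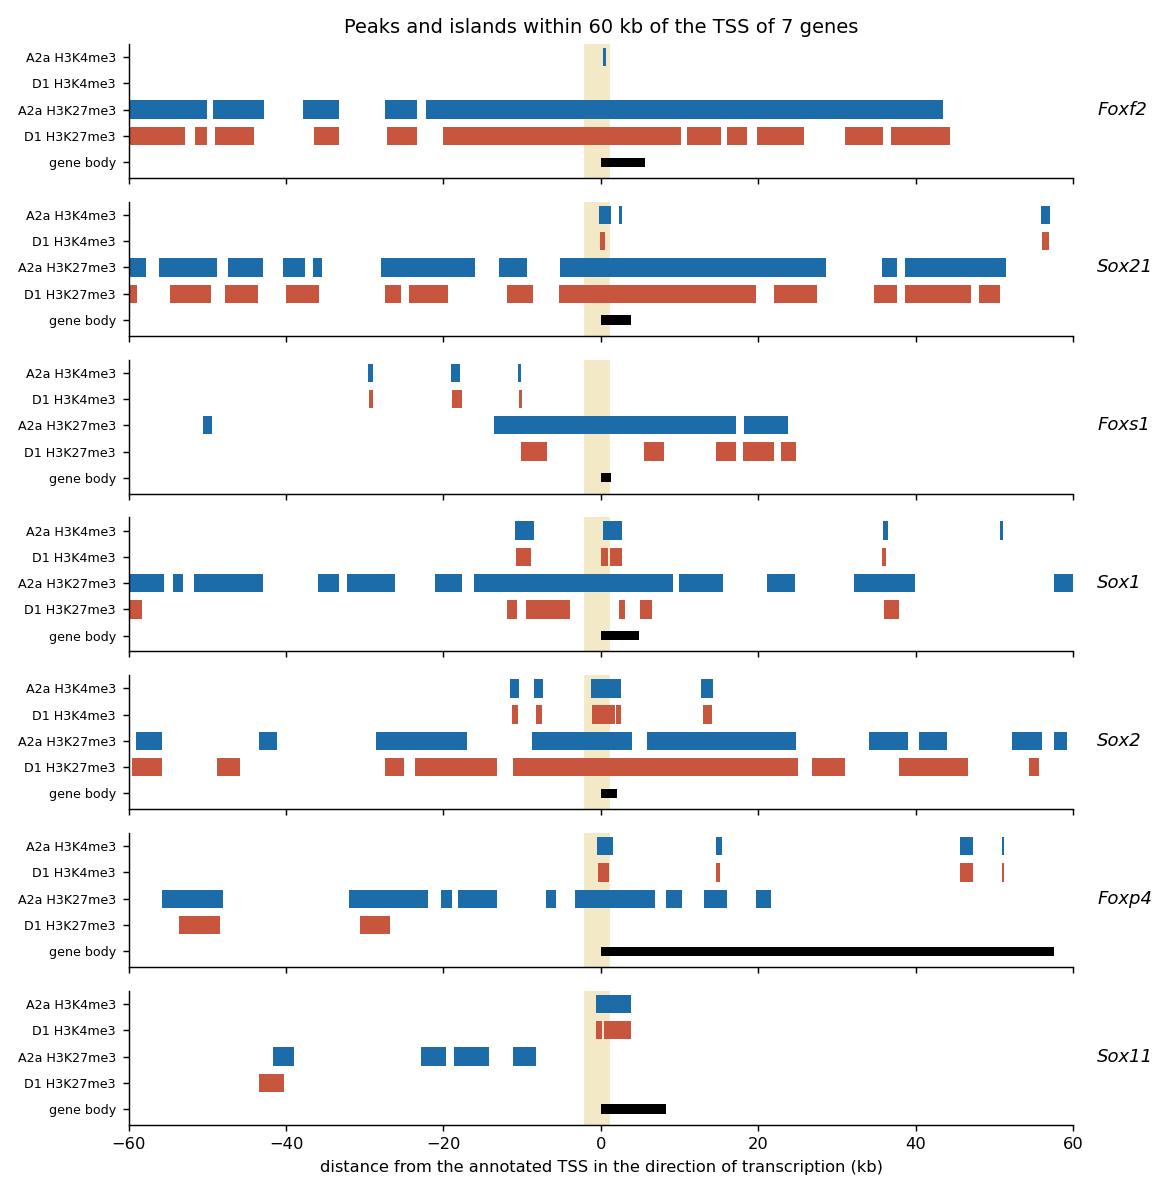
H3K4me3 peaks and H3K27me3 islands of A2a (blue) and D1 (red) within 60 kb of the TSS of 7 genes, by distance from the TSS in kb in the direction of transcription, with the gene body in black and the promoter window shaded. At *Sox1* the A2a island of 25.2 kb spans only smaller D1 islands, and at *Sox11* no island reaches the promoter. At *Sox2* the D1 island (36.2 kb) spans the A2a promoter island (12.8 kb) and a further A2a island.

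Most of the other islands had reads in the ratio usual for the lists. The 33 members with a region in which islands of both cell types overlapped lay in 31 regions. Their ratio of A2a to D1 reads had a median of 2.27, against 2.33 over all shared regions, which is -0.03 on the relative log2 scale. Of the 33, 27 (81.8%) were within 0.3 of the median on this scale, where 39.1% of all 28726 shared regions were. This limit was chosen after the ratios had been seen, and long regions have more reads and a smaller counting error. Of the shared regions of at least 10 kb, 46.6% of all 5894 and 24 of the 28 that held members were within it. The median of the 5894 was 0.07 on this scale. The highest relative ratios were those of *Sox1*, *Foxs1* and *Sox5* (0.90, 95% interval 0.62 to 1.19). At these 3 genes the D1 islands covered less of the region than the A2a island, as at *Sox5* with 3.20 kb against 7.20 kb. The part of island extent in these ratios was not tested. The lowest were those of *Sox2*, *Foxn3* (-0.54, -0.65 to -0.43) and *Sox6* (-0.29, -0.38 to -0.20).

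**Figure D5:**
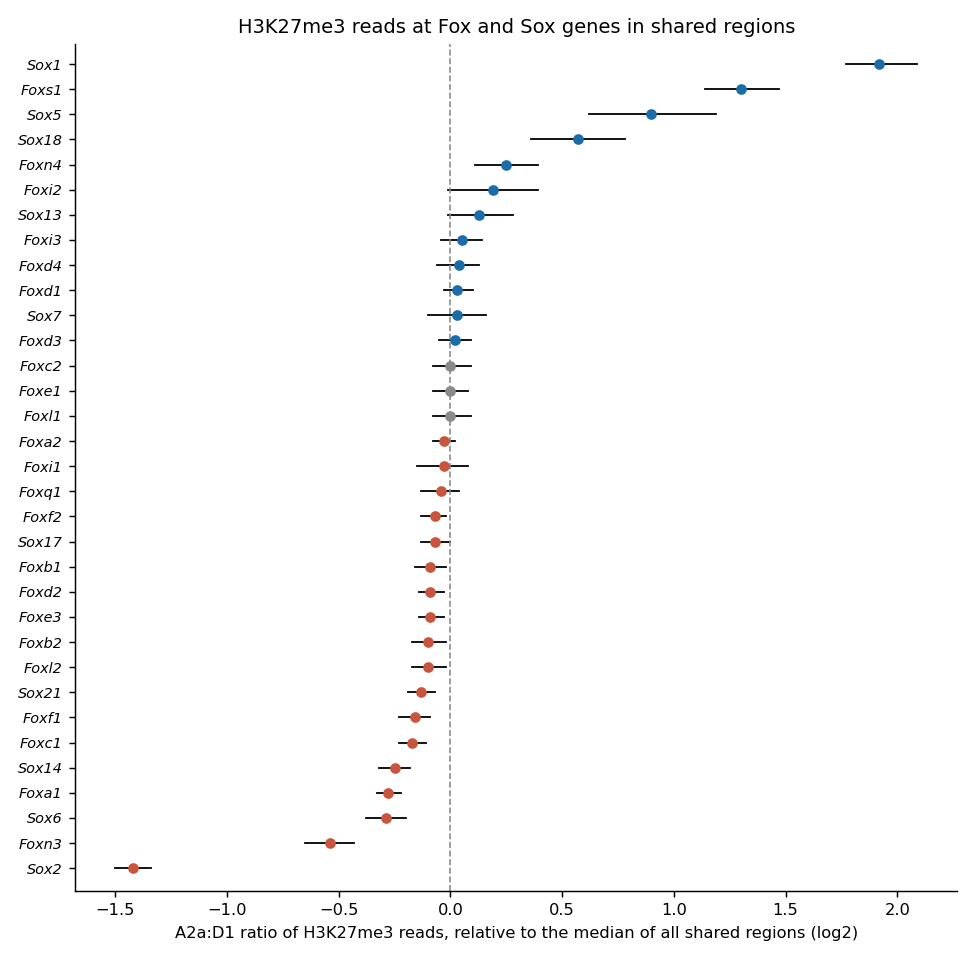
Ratio of A2a to D1 H3K27me3 reads in the merged region at each of 33 Fox and Sox genes, on a log2 scale relative to the median of all shared regions (dashed line at 0); points are the values, blue above 0, grey at 0 and red below it, and lines are 95% exact binomial intervals, which cover counting error only. Only reads inside called islands are counted. *Sox1* (1.92) and *Sox2* (-1.42) lie at the ends, and 27 of the 33 genes lie within 0.3 of 0.

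No mark was found at the promoter of 4 genes in either cell type. *Foxr1* and *Sox15* had no peak or island in the gene body either, and their nearest islands were 225 and 201 kb away in A2a and 206 and 221 kb in D1. *Foxn1*, the factor of thymic epithelium, had 3 A2a islands over 35.9% of its body, with 554 reads, and none in D1. *Foxj3* had an H3K4me3 peak in both cell types that lay from 1.76 to 4.07 kb downstream of its annotated start in A2a, at the start of another annotated transcript. Counted at any annotated TSS, *Foxj3* had H3K4me3 alone, and the absence at its promoter window depends on which start is used.

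Fox and Sox promoters with H3K27me3 held more CpG than those of all genes of the same class. In the 3000 bp promoter window the 21 A2a promoters with H3K27me3 alone had a median of 46.7 CpG per kb, against 13.7 over the 2614 genes of this class. The 15 bivalent promoters had 52.7 against 32.7, and the 15 with H3K4me3 alone had 53.3 against 34.3. All 55 members had a median of 48.7 CpG per kb, and all genes 24.7. Thus the members with H3K27me3 alone were about as rich in CpG as those with H3K4me3 alone, whereas over all genes the 2 classes differed. The range was wide, from 95.3 per kb at *Foxf1* and 86.3 at *Foxo3* and *Sox12* to 11.7 at *Foxq1*, the lowest among members with an island. The 4 genes with neither mark had 8 (*Foxj3*) to 24 (*Foxr1*) CpG per kb.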

How the data were processed

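Lists were taken as deposited. Per the labels and the study's methods, the authors mapped CnR reads to mm10 with Bowtie2 2.1.0, filtered them with SAMtools 0.1.19 and Picard, and pooled 2 replicates per list. For H3K4me3 the authors ran MACS2 (q of 0.01), and the deposited peaks list their fold enrichment (a ratio) and −log10 q. For H3K27me3 they ran SICER (window 200 bp, gap 600 bp, FDR 0.01), and each deposited island carries its read count. The control used for SICER was not given in the sources used here.

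A promoter was called marked where at least 1 bp of a peak or island overlapped its 3000 bp window (GENCODE M21). Percentiles were taken within each list, by −log10 q or by reads. Reads inside called A2a and D1 islands were summed and compared in merged shared regions, with 95% exact binomial intervals. No test across mice could be made. The scripts (Python 3.11.15, numpy 2.4.6, scipy 1.17.1, matplotlib 3.10.9) were tested on simulated data. The members and gene lists were chosen with earlier results of these data known. Named genes were a list of neural and widely expressed members, those whose class differed, those with the longest islands or highest peaks, those sharing an island or without any mark, and the ends of the read ratios. The 3 kb limit on peaks and the 0.3 limit on log2 ratios were chosen after values were seen. RefSeq promoters (GRCm38.p6) matched 38 of 55 members. The other 20 samples of the series were not analysed here, and the values of 1 member, which stays in the counts, are not reported here.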

Additional observations from a re-analysis of the deposited data

How the results depend on the processing

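The 15 counts and medians were computed under 133 alternatives. Of these, 113 left them within 1.5 times the count or within the spread of the members, 20 moved them and 0 reversed them. Only the median relative log2 ratio of reads has a sign that could reverse. The 0 therefore says nothing about the counts and the other medians. With a window of 5 kb on each side, 8 promoters were bivalent in D1 and 8 in both cell types. With islands within 5 kb merged, the median promoter island was 47.5 kb in A2a and 34.7 kb in D1, and the median relative log2 ratio of reads was -0.11. Fox genes alone gave 18 promoters with H3K4me3 in A2a and 14 in D1, and 8 bivalent in A2a, 1 in D1 and 1 in both. Sox genes alone gave 12 promoters with H3K4me3 in A2a and 11 in D1, 10 with H3K27me3 in A2a and 8 in D1, 7 bivalent in A2a, 3 whose class differed, 6 bodies inside 1 island in A2a and 5 in D1, a median A2a island of 17.5 kb and a median D1 H3K4me3 percentile of 43.0. Counts of a single family are lower because fewer genes enter, and the cause of the other moves was not tested. No paired analysis was possible because each list pools its replicates. The depth of each list is unknown, and its part in the marks missing from D1 was not tested. Lists of equal size left 36 A2a and 30 D1 promoters with an island. They cannot decide this for islands, as the cut dropped only the A2a islands with the fewest reads. The lowest of the members' A2a islands, at percentile 27.5, lay above that cut, and reads per island stayed unequal.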

Other observations

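Promoters of 11 annotated transcripts named for overlapping or lying opposite to Fox and Sox genes were read in the same way. In A2a, 4 were bivalent, 5 had H3K27me3 alone and 2 had neither mark, and in D1 these numbers were 2, 7 and 2. None had H3K4me3 alone in either list. *Sox1ot*, which runs across *Sox1*, was bivalent in both cell types, and its island was the 25.2 kb island of *Sox1* with 3205 reads in A2a and one of 5.60 kb with 249 reads in D1. The *Sox1* promoter itself had no D1 island, so a D1 island reached the promoter window of the long transcript and not that of the gene. A D1 island lay 1.31 kb from the *Sox1* window, so this contrast depends on where the windows are placed. *Sox2ot* was bivalent in both, with islands of 4.60 kb and 439 reads in A2a and 4.80 kb and 275 reads in D1. *Foxd2os* and *Sox6os* were bivalent in A2a and had H3K27me3 alone in D1. *Foxl2os* and the *Sox5* transcripts *Sox5os1*, *Sox5os2*, *Sox5os3* and *Sox5os5* had H3K27me3 alone in both, and *Sox5os4* and *Foxo6os* had neither mark in either. Several of these starts share an island with their neighbouring gene and are not independent of it.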
